A study of Mus musculus with 10 samples.

Results

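The 46 genes described here encode proteins of skeletal muscle, namely its contractile filaments, its Z disc and M line, its calcium handling and its energy metabolism. They were listed by gene symbol, and all 46 were found among the 55401 gene rows of the count table. A count was recorded for 45 of them in at least 1 tumor, 37 were above 3 counts in every tumor, and 39 passed the filter on low counts and were tested together with 17464 genes in all. The implanted cells came from lung, and the genes were read per tumor for host muscle in the fragment and for its fiber type, although other cells can make some of them.

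RNA was sequenced from frozen fragments of 10 subcutaneous tumors grown from KPN1.1, a single mouse lung adenocarcinoma line, of which 75000 cells were injected into the flank. The hosts were obese male C57BL/6J mice, 7 to 17 weeks old at injection, on a diet with 60% of calories from fat. Mice of the liraglutide group (n = 5) received the GLP-1 receptor agonist liraglutide by intraperitoneal injection each day at 0.2 μg per gram of body weight, and those of the vehicle group (n = 5) received phosphate-buffered saline. Tumors were taken 19 to 22 days after injection of the cells or at the volume limit of 2000 mm3. Total counts lay between 9927942 and 14480593 per tumor, so 3 counts, used as a detection floor, corresponded to 0.207 to 0.315 CPM, the count of a gene relative to the scaled size of its library. Such floors, and the binomial intervals given for shares of counts, cover counting error only. In a tumor fragment, fewer cells of a type and less RNA per cell cannot be told apart.

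In skeletal muscle, myosin thick filaments pull on actin thin filaments between Z discs, with titin and nebulin as giant scaffold proteins. Calcium leaves the sarcoplasmic reticulum through the ryanodine receptor, binds troponin and is pumped back by the SERCA pump. Fibers are classed by their myosin heavy chain: Myh7 in slow fibers, Myh2, Myh1 and Myh4 in fast fibers of type IIA, IIX and IIB, with the last prominent in the limb and trunk muscles of mice. The thin layer of muscle beneath mouse skin, the panniculus carnosus, lies close to a subcutaneous graft.

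Promoters are shown for 5 members that lead the results: Acta1, which was second in level per kilobase, Ttn, which held the most counts, the neighboring fast myosin genes Myh1 and Myh4, and Eno3, which did not vary with the others. RefSeq windows of 250 bases before to 50 after the start (GRCm38.p6) were found for 37 of the 46 genes, as 44 windows in all, and the 250 bases before the start are printed 5′ to 3′. Capitals mark matches to the CArG box, the binding sequence of serum response factor, and to the site of MEF2, a transcription factor of muscle genes. The windows lie at chr8:123894776-123895025 on the minus strand for Acta1, chr2:76982548-76982797 on the minus strand for Ttn, chr11:67199852-67200101 on the plus strand for Myh1, chr11:67237562-67237811 on the plus strand for Myh4 and chr11:70656926-70657175 on the plus strand for Eno3.
Acta1: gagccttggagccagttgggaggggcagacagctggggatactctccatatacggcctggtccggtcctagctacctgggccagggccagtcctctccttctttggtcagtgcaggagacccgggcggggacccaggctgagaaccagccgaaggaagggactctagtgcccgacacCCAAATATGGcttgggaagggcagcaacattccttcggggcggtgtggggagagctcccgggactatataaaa
Ttn: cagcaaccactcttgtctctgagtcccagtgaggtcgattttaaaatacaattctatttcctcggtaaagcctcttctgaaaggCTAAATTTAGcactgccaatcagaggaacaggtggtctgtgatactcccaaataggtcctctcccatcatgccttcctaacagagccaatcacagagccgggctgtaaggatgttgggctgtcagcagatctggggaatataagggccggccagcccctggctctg
Myh1: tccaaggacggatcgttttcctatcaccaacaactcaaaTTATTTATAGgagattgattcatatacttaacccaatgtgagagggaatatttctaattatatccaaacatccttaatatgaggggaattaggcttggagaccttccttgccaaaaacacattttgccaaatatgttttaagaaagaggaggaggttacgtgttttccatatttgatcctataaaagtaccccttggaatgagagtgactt
Myh4: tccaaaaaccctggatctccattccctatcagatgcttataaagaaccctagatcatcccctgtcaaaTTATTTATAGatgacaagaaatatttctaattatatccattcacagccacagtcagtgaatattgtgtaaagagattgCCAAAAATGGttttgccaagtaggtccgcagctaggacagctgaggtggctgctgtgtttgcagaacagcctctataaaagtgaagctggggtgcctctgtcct
Eno3: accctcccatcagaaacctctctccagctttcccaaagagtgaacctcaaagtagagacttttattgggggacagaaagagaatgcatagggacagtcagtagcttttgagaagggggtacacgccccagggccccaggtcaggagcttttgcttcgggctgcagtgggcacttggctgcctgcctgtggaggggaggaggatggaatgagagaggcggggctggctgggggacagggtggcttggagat

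A CArG box on either strand was found in 13.64% of the members' windows and in 1.63% of all 32851 windows, and a MEF2 site in 15.91% and 3.19%. The E-box, CANNTG on either strand, which myogenic factors bind, was found in 84.09% of the members' windows and 72.31% of all. The TATA box, searched as TATAAA on the gene's own strand, was found in 13.64% and 8.32%. Myh1 and Myh4 shared the same MEF2 letters, TTATTTATAG, starting at base -211 and base -182 from their starts, and Myh4 alone of the pair had a CArG box, at -104. The window of Eno3 held neither motif. These matches are a description of letters in a window and not of binding.

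Muscle transcripts were present in every tumor, and their amount varied 6.24-fold between tumors. The summed level of the 46 genes was 374, 557, 1366, 668 and 878 CPM in vehicle tumors 1 to 5 and 803, 907, 1576, 1577 and 2331 CPM in liraglutide tumors 1 to 5. Liraglutide tumor 5 was the highest and vehicle tumor 1 the lowest. The groups overlapped because vehicle tumor 3 lay above liraglutide tumors 1 and 2 and vehicle tumor 5 above liraglutide tumor 1. The mean of the vehicle tumors was 769 ± 381 CPM and that of the liraglutide tumors 1439 ± 617 CPM (SD, n = 5 each). As a share of all counts, the genes took 0.0374% to 0.131% with vehicle and 0.0806% to 0.243% with liraglutide.

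**Figure D1:**
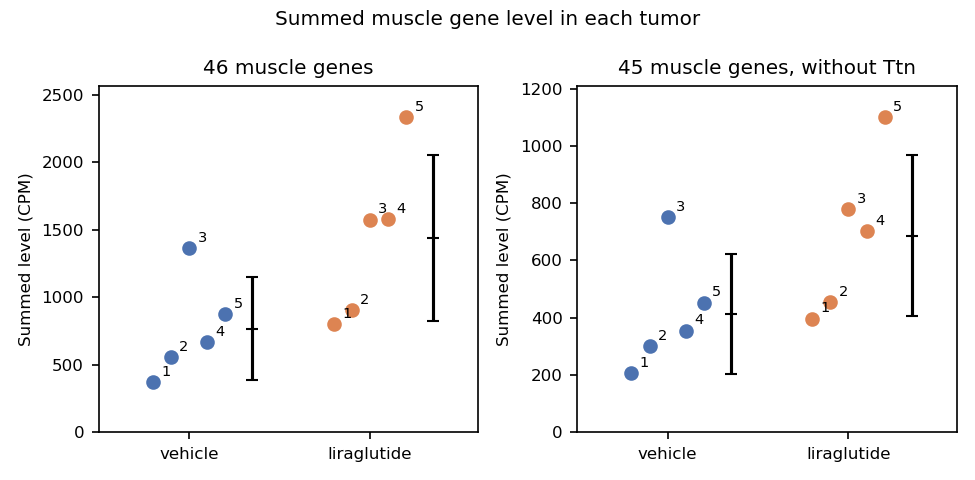
Summed level (CPM) of the muscle genes in each tumor, with all 46 genes on the left and without Ttn on the right; points are tumors, numbered as in the labels, and the bars to their right are the mean ± SD (n = 5). Vehicle tumor 3 lies within the range of the liraglutide tumors in both panels, and liraglutide tumor 5 is the highest.

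Most tested members had their highest and lowest levels in the same tumors. Of the 39 tested members, 29 were highest in liraglutide tumor 5 and 30 were lowest in vehicle tumor 1. Vehicle tumor 3 was the highest for 6 members. Not all members followed one order of tumors. In vehicle tumor 4, Myh7 was at its vehicle maximum of 29.5 CPM, while Myh4 was at 7.87 CPM. Correlation between members was not computed. The median member had an SD of 0.86 in log2 CPM over the 10 tumors, against 0.34 for the median of all 17464 genes tested, at a median level of 7.05 CPM against 14.1 CPM, and low counts raise this SD. The widest ranges among members above the floor in every tumor were those of Myh7, with a highest level 91.6 times the lowest, Myh4 with 20.1 times and Mybpc2 with 15.0 times.

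**Figure D2:**
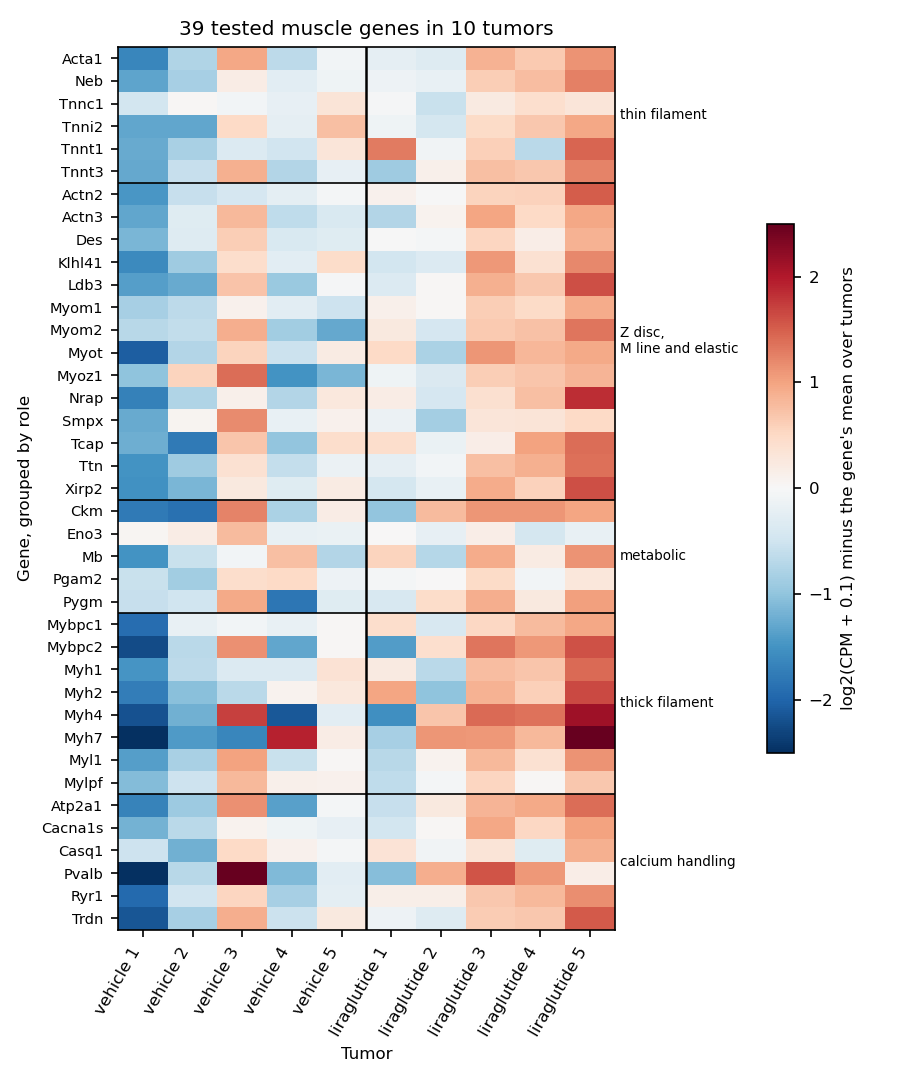
Level of the 39 tested muscle genes (rows, grouped by role) in each tumor (columns), as log2(CPM + 0.1) minus the gene's mean over the 10 tumors; red is above the mean and blue below, and the vertical line separates the groups. The column of vehicle tumor 1 is blue for nearly all genes, and that of liraglutide tumor 5 is red for most. Vehicle tumor 3 is red for more genes than the other vehicle tumors, but blue for Myh7 and Myh2. The row of Eno3 is pale throughout.

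Of the summed levels by role, that of the thick filament genes ranged most widely, 11.9-fold between tumors. Myh4, the fast IIB myosin heavy chain (ENSMUSG00000057003.12), was at 7.46, 14.8, 113, 7.87 and 28.8 CPM in the vehicle tumors and 11.8, 55.3, 91.6, 87.9 and 149.6 CPM in the liraglutide tumors. Vehicle tumor 3 stood far above the other vehicle tumors and liraglutide tumor 1 far below the other liraglutide tumors. Myh1, the IIX chain, was at 7.94, 14.2, 17.6, 17.7 and 28.8 CPM with vehicle and 26.3, 13.96, 38.3, 35.9 and 59.4 CPM with liraglutide, and vehicle tumor 3 was not raised for this gene. Myh2, the IIA chain, was at 1.93, 3.14, 4.09, 7.03 and 7.98 CPM and 13.3, 3.27, 12.2, 10.01 and 21.1 CPM, again with overlap of the groups. Myh7, the slow chain that is also the main myosin of the mouse embryonic ventricle, was at 0.484, 2.84, 2.42, 29.5 and 8.80 CPM and 4.32, 16.8, 16.6, 13.6 and 44.3 CPM, with its vehicle maximum in tumor 4. The fast light chains Mylpf and Myl1 lay between 4.49 and 16.8 CPM and between 3.87 and 22.2 CPM over all tumors. The myosin binding proteins Mybpc1 and Mybpc2, slow and fast forms, ranged from 1.59 to 12.3 CPM and from 1.66 to 24.8 CPM, and their relative Mybph never exceeded 15 counts. Of the slow light chains, Myl3 had no count in any tumor, which allows at most 0.315 CPM in the least deep tumor, and Myl2 had 7 counts in all.

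Per kilobase of transcript, the order of the myosins differed between tumors. Myh4 took the largest share of the 4 adult heavy chains in 8 tumors, from 42.9% to 85.1%, although by raw counts it led in 6, since Myh1 led in vehicle tumors 1 (44.6% against 41.9%) and 5 (38.8% against 38.7%). In liraglutide tumor 1 the largest share, 42.8%, was that of Myh1, and Myh2 reached 24.1% there. In vehicle tumor 4 Myh7 took 50.6% and Myh4 13.9%. The mean share of Myh4 was 47.2% ± 25.3 in vehicle and 54.5% ± 16.98 in liraglutide tumors, and that of Myh7 was 15.4% ± 20.2 and 12.96% ± 4.63 (SD, n = 5 in each group), so no share differed between the groups by more than the spread within them. Myh1, Myh2 and Myh4 lie beside each other on chromosome 11 and are near-identical in long stretches, so reads may have been split among them or lost, and the balance within this trio is uncertain.

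**Figure D3:**
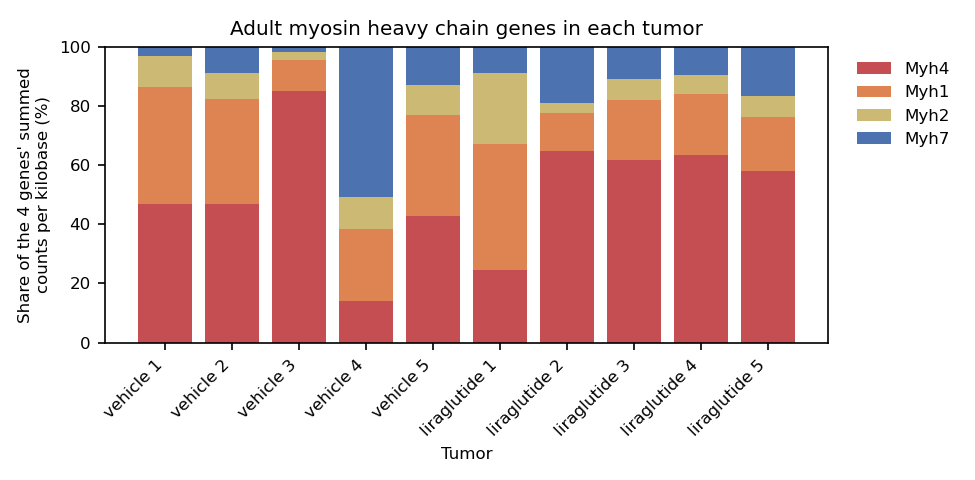
Share of Myh4, Myh1, Myh2 and Myh7 in their summed counts per kilobase (%, stacked to 100) in each tumor. Myh4 has the largest part in 8 tumors; vehicle tumor 4 is led by Myh7 (50.6%) and liraglutide tumor 1 by Myh1 (42.8%).

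The paired fast and slow isoforms of other sarcomere proteins gave the fast form in most cases. The fast inhibitory subunit Tnni2 held 91.1% to 97.5% of the per-kilobase sum with its slow partner Tnni1, and fast Tnnt3 held 64.2% to 96.0% with slow Tnnt1. The lowest Tnnt3 share was that of liraglutide tumor 1, where 83 of 112 counts were Tnnt3 (74.1%, exact binomial 95% interval 65.0% to 81.9%). Fast Mylpf held 98.5% to 100% against slow Myl2, and fast Myl1 held 100% against Myl3. The myosin binding protein pair was more even, with fast Mybpc2 at 28.1% to 76.9% against slow Mybpc1 and above it in 8 of 10 tumors. The calcium-binding troponin pair ran the other way: fast Tnnc2 had 1 count in all, in liraglutide tumor 4, and slow Tnnc1 had 108. In the annotation, 68.67% of the exonic length of Tnnc2 is shared with Ube2c on the opposite strand, a mitotic gene at 16.1 to 58.6 CPM in these tumors. Whether reads there were dropped depends on how strand and overlaps were counted, which is not given in the sources used here, and was not tested.

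Thin filament genes held the second rank by level per kilobase. Acta1, the skeletal alpha actin (ENSMUSG00000031972.5, chr8:124618501-124623661 in GRCm39), was at 11.4, 21.2, 70.03, 22.5 and 34.1 CPM with vehicle and 30.5, 28.6, 65.1, 56.3 and 77.3 CPM with liraglutide. Its mean of 25.3 CPM per kilobase was above the 14.6 of Tnni2, the 13.5 of Mylpf and the 5.15 of Ttn on the same scale. Neb, the nebulin that sets thin filament length, was at 27.6, 38.8, 78.4, 57.7 and 64.7 CPM and 63.8, 61.1, 107, 118 and 166 CPM. Tnnt1, the slow troponin T, was at 0.345, 0.507, 0.735, 0.669 and 1.22 CPM and 2.51, 0.898, 1.52, 0.567 and 2.83 CPM, with liraglutide tumors 1 and 5 the highest. Fast Tnnt3 ranged from 5.46 to 31.8 CPM and fast Tnni2 from 3.73 to 18.3 CPM. The slow genes Tnnc1 and Tnni1 were near the floor in all tumors, with the highest level 2.15 and 2.06 times the lowest.

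Ttn, which encodes titin, held 44.5% to 48.5% of all muscle counts in vehicle tumors and 49.9% to 55.4% in liraglutide tumors, by virtue of a canonical transcript of 107543 bases. Its level was 166, 255, 615, 312 and 426 CPM with vehicle and 406, 453, 797, 874 and 1232 CPM with liraglutide, with overlap through vehicle tumors 3 and 5. Without Ttn, the summed muscle level was 207, 302, 751, 355 and 453 CPM with vehicle and 397, 454, 779, 703 and 1099 CPM with liraglutide, and the ratio of the group means was 1.66 in place of 1.87. The share of Ttn, singled out after its values were seen, did not overlap between the groups. Des, the intermediate filament desmin, which smooth muscle also makes, ranged from 9.05 to 36.8 CPM. Xirp2, an actin-binding protein, ranged from 14.3 to 126 CPM, Actn3, the alpha-actinin of fast fibers, from 2.63 to 13.04 CPM, and Ldb3, a Z disc scaffold, from 0.829 to 7.29 CPM. Actn2, the alpha-actinin of all fibers, was at 1.17, 2.23, 2.52, 2.85 and 3.26 CPM with vehicle and 3.63, 3.35, 5.00, 5.10 and 9.90 CPM with liraglutide, and was the only member whose groups did not overlap. Myom1, the M line myomesin, was at 3.32, 3.75, 6.40, 4.94 and 4.15 CPM and 6.48, 6.12, 9.17, 8.31 and 11.4 CPM, where vehicle tumor 3 lay above liraglutide tumor 2. Of the other genes of the Z disc, M line and fiber attachment, Nrap ranged from 2.07 to 25.1 CPM, Klhl41 from 1.45 to 10.6 CPM, Myom2 from 0.977 to 6.55 CPM and Myot, or myotilin, from 0.345 to 3.87 CPM. The lowest of the tested ones were Tcap, the titin cap protein (0.203 to 2.61 CPM), Smpx (0.345 to 2.31 CPM) and Myoz1 (0.167 to 1.89 CPM). Trim63, a ubiquitin ligase that rises in muscle wasting, was too low to be tested, at 0.0691 to 1.88 CPM.

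Among calcium handling genes, Atp2a1, the SERCA pump of fast fibers, was at 7.32, 12.6, 52.1, 9.20 and 22.8 CPM with vehicle and 15.8, 27.9, 42.5, 45.8 and 62.5 CPM with liraglutide. Pvalb, the calcium buffer parvalbumin of fast fibers, was at 0.0691, 0.811, 8.40, 0.586 and 1.14 CPM and 0.605, 2.69, 4.32, 3.02 and 1.56 CPM. Vehicle tumor 3 was the highest of all 10 tumors for Pvalb and the second highest for Atp2a1 and Myh4. Ryr1, the calcium release channel, ranged from 3.18 to 28.2 CPM, Casq1, the calcium store protein of fast fibers, from 1.12 to 5.06 CPM, and Cacna1s, the voltage sensor, from 0.898 to 4.47 CPM. Trdn, the triadin that anchors the release complex, ranged from 0.760 to 10.9 CPM.

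Among the metabolic genes, Eno3 stood apart from the rest. It encodes the muscle enolase, had the highest level per kilobase of all members (40.3 CPM per kilobase), and was at 70.5, 77.4, 119, 59.996 and 60.4 CPM with vehicle and 69.02, 59.1, 76.6, 50.2 and 59.7 CPM with liraglutide. Only vehicle tumor 3 stood out, as the highest, and vehicle tumor 1, the lowest for most members, was not low for Eno3. Ckm, the muscle creatine kinase, an abundant transcript of mature fibers, was at 0.760, 0.7097, 6.82, 1.59 and 3.26 CPM and 1.38, 4.98, 6.22, 6.24 and 5.73 CPM, or 0.929 CPM per kilobase on average. Mb, myoglobin of oxidative fibers, ranged from 0.484 to 3.499 CPM and Pygm, the muscle glycogen phosphorylase, from 1.09 to 8.34 CPM. For Pgam2, the muscle phosphoglycerate mutase at 1.42 to 3.85 CPM, all exonic bases are shared with Dbnl on the opposite strand, and its level is uncertain. Ckmt2, the mitochondrial creatine kinase, had at most 9 counts in a tumor and was not tested.

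The comparison by treatment asked whether these genes differed between liraglutide and vehicle tumors. None of the 39 tested members passed an adjusted p under 0.05 with an absolute log2 fold change over 0.58 (edgeR quasi-likelihood test, Benjamini-Hochberg adjustment), and 0% of all 17464 genes did. The smallest adjusted p was 0.482, both among the members and among all genes. DESeq2 with its default filtering called 25 genes in all, but it gave an adjusted p to only 4 of the 39 members (smallest 0.0992), so the other 35 could not be called. Without that filtering, a setting added after seeing the data, all 39 members had an adjusted p, the smallest was 0.0888 (Myom1), none was called, and 21 genes in all were. The members nonetheless lay to one side: 37 of 39 (94.9%) had a positive log2 fold change, against 47.4% of all genes, and their median was 0.88 against -0.02. The members were listed with earlier results of these data known, and they share their fragments. They are not independent measurements of a treatment effect, and the shares given here describe the list only. An unadjusted p under 0.05 was reached by 13 of 39 members (33.3%) in the higher direction, against 3.97% of all genes, and by 0 in the lower direction, against 5.62%. With scaling by library size alone, 990 genes in all were higher and 619 lower at that p, in place of 694 and 981, and 14 and 0 of the members. Groups without overlap were found for 1 member in the higher direction, Actn2, against 0.607% of all genes, and for 0 in the lower direction, against 0.888%.

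The number of members at an unadjusted p under 0.05 turned on single tumors. It was 28 without vehicle tumor 3, 8 without vehicle tumor 1 and 4 without liraglutide tumor 5, with 0 lower in each. All tested genes numbered 669 higher and 768 lower of 17897 at that p without vehicle tumor 3, 474 and 722 of 17756 without vehicle tumor 1, and 391 and 528 of 17680 without liraglutide tumor 5. The members' median log2 fold change was 1.19 without vehicle tumor 3, 0.66 without vehicle tumor 1 and 0.67 without liraglutide tumor 5.

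Among the members with a fold change given here, the largest estimates were those of myosin, Z disc and troponin genes. Myh2 had a log2 fold change of 1.31 (SE 0.48, adjusted p = 0.482), Tnnt1 of 1.26 (SE 0.48, adjusted p = 0.499) and Myh4 of 1.21 (SE 0.80, adjusted p = 0.623). Actn2 had 1.17 (SE 0.35, adjusted p = 0.482), and all 5 liraglutide tumors were above all 5 vehicle tumors, which gives the smallest p that 5 against 5 allow (0.00794, exact permutation test on log2 CPM, two-sided). Actn2 was added for its small p, and of the 24 members set by role 2 had an exact p under 0.05 and 0 reached this smallest value. Ldb3 had 1.13 (SE 0.49, adjusted p = 0.515), Myh7 1.12 (SE 0.87, adjusted p = 0.675), Ttn 1.08 (SE 0.38, adjusted p = 0.482) and Myh1 1.01 (SE 0.38, adjusted p = 0.499). Neb had 0.95 (SE 0.33, adjusted p = 0.482) and Myom1, the member with the smallest unadjusted p, 0.88 (SE 0.23, adjusted p = 0.482). The large standard errors of Myh4 and Myh7 go with their wide range within each group. With a tumor left out, Myh4 lay between 0.86 (without liraglutide tumor 5) and 2.44 (without vehicle tumor 3), and Myh7 between 0.54 (without liraglutide tumor 5) and 2.405 (without vehicle tumor 4), and limma-voom gave 1.70 and 1.99.

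A middle set had log2 fold changes from 0.43 to 0.92. Ckm had 0.92 (SE 0.60, adjusted p = 0.623), Atp2a1 0.91 (SE 0.53, adjusted p = 0.593), Mb 0.83 (SE 0.46, adjusted p = 0.582) and Pygm 0.75 (SE 0.45, adjusted p = 0.601). Tnnt3 had 0.74 (SE 0.44, adjusted p = 0.601), Acta1 0.70 (SE 0.45, adjusted p = 0.618) and Actn3 0.69 (SE 0.42, adjusted p = 0.601). For Des the value was 0.55 (SE 0.29, adjusted p = 0.566), for Tnni2 0.48 (SE 0.43, adjusted p = 0.714) and for Casq1 0.43 (SE 0.33, adjusted p = 0.676). Pvalb, at 0.19 (SE 0.88, adjusted p = 0.954), and Mylpf, at 0.16 (SE 0.35, adjusted p = 0.885), were the closest to 0 of the members with a fold change given, and each fell below 0 when vehicle tumor 1 was left out. Without vehicle tumor 3 the value was 1.93 for Pvalb and 0.45 for Mylpf, and limma-voom gave 1.38 for Pvalb. Acta1 lay between 0.48 (without vehicle tumor 1) and 1.22 (without vehicle tumor 3). Of the 23 members with a fold change given, 15 moved by over 1.5 times with a tumor left out, and 12 of these were highest without vehicle tumor 3. Eno3 was the lowest of the tested members, at -0.30 (SE 0.19, adjusted p = 0.621). With a tumor left out, Eno3 lay between -0.38 (without liraglutide tumor 3) and -0.09 (without vehicle tumor 3).

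**Figure D4:**
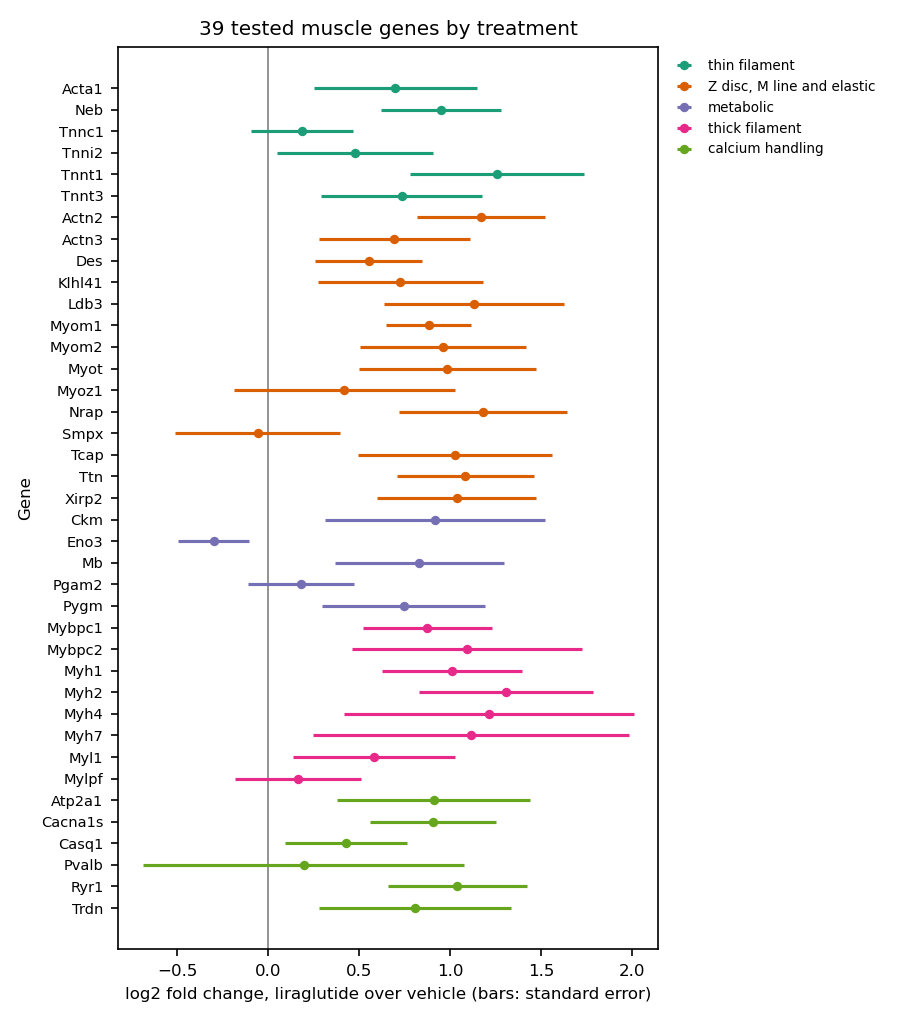
Log2 fold change of liraglutide over vehicle for the 39 tested muscle genes (points, colored by role), with the standard error as bars; the vertical line is at 0. Estimates for 37 genes lie right of 0, Eno3 and Smpx lie left, and no gene passed the adjusted threshold.

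By role, 8 of 8 tested thick filament genes, 6 of 6 thin filament genes, 13 of 14 genes of the Z disc, M line and elastic filament, 6 of 6 calcium handling genes and 4 of 5 metabolic genes had a positive log2 fold change. Their median log2 fold changes were 1.05, 0.72, 0.97, 0.86 and 0.75. The summed level of the fast fiber members was 135 ± 102 CPM in vehicle and 252.3 ± 123 CPM in liraglutide tumors (SD, n = 5), and that of the slow fiber members 11.03 ± 12.2 CPM and 22.6 ± 15.6 CPM, both overlapping between groups. The metabolic sum, of which Eno3 was the main part, was 88.0 ± 29.3 CPM and 79.6 ± 11.7 CPM.

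Transcript length moved with the estimates. The 13 members under 2 kilobases had a median log2 fold change of 0.48, the 11 from 2 to 5 kilobases 0.74 and the 15 over 5 kilobases 1.04, against -0.07, -0.01 and 0.02 for all genes of these lengths. Genes over 5 kilobases held 41.0% to 42.5% of the counts in vehicle tumors and 43.4% to 44.3% in liraglutide tumors, without overlap. Genes under 2 kilobases held 18.3% to 19.4% and 16.7% to 17.6%. This split was looked at after the share of Ttn had been seen, and the part of it in the muscle values was not tested.

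Of 40 other listed genes of skeletal muscle that were not among the 46, 20 were tested and 17 lay above 0 (median log2 fold change of the 20, 0.57). An unadjusted p under 0.05 in the higher direction was reached by 5, against 3.97% of all genes, and 0 passed the adjusted threshold. Among the most abundant were Atp2a2, the SERCA pump that many cell types make (437 ± 83.2 CPM in vehicle and 490.3 ± 52.3 CPM in liraglutide tumors, SD, n = 5), Cmya5 (7.42 ± 4.39 and 15.0 ± 7.57), and Srl, the reticulum protein sarcalumenin (7.17 ± 2.20 and 10.5 ± 0.895). Genes of muscle precursors and immature fibers were near the floor, with 2 of 16 tested and no more than 35 counts for any gene in any tumor. Their summed level was 3.18 to 8.72 CPM with vehicle and 6.24 to 8.56 CPM with liraglutide. The most abundant were Chrna1, the acetylcholine receptor of muscle, Myh8 and Myh3, the perinatal and embryonic myosins, and Cdh15. Myh8 was at 0.782 ± 0.386 CPM in vehicle and 1.80 ± 0.402 CPM in liraglutide tumors (log2 fold change 1.19, adjusted p = 0.482). Chrna1, the other tested gene of this list, was at 1.57 ± 1.35 CPM and 1.45 ± 0.749 CPM (log2 fold change -0.11, adjusted p = 0.962), so 1 of 2 was positive.

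Of 8 genes of heart muscle, 4 were tested and 1 of these had a positive log2 fold change. An unadjusted p under 0.05 in the lower direction, found for 5.62% of all genes, was reached by 1. It was the cardiac calcium release channel gene Ryr2 (log2 fold change -0.80, adjusted p = 0.503). The summed level was 123 to 277 CPM with vehicle and 97.5 to 240 CPM with liraglutide. Nearly all of that sum was Tnnt2, at 92.8 to 274 CPM, while Myh6, a cardiac myosin, never exceeded 0.0837 CPM and the natriuretic peptide gene Nppa never exceeded 0.227 CPM. Smooth muscle and pericyte genes summed to 290 to 542 CPM with vehicle and 333 to 421 CPM with liraglutide, with 8 of 9 tested genes positive, a median log2 fold change of 0.25 and 0 at an unadjusted p under 0.05. The most abundant, Smtn, which encodes smoothelin, was the 1 with a negative estimate, at 175 ± 107 CPM and 94.2 ± 46.9 CPM (log2 fold change -0.89, adjusted p = 0.57995). Mylk was at 99.2 ± 11.6 CPM and 114 ± 22.8 CPM, Rgs5 at 85.3 ± 14.6 CPM and 89.1 ± 29.5 CPM, and Acta2, the smooth muscle actin, at 30.5 ± 3.59 CPM and 38.4 ± 10.4 CPM (SD, n = 5 for each value). Smtn, Mylk and Rgs5 made up most of the sum. Other genes of this list were low, with means over the 10 tumors of 3.63 CPM for Myh11, 0.878 for Cnn1, 0.831 for Lmod1 and 0.772 for Tagln.

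Genes of skin, fat, nerve, blood and lung epithelium were read from lists in the same way, and other cells, tumor cells among them, can make some of them. The summed keratinocyte level was 11.4, 12.7, 25.9, 19.4 and 18.9 CPM with vehicle and 11.8, 278, 11.5, 98.7 and 68.3 CPM with liraglutide, so that liraglutide tumors 2, 4 and 5 were far above the other 7. All 6 tested keratinocyte genes were positive, and 5 had an unadjusted p under 0.05 in the higher direction, against 3.97% of all genes. Of these genes, 0 passed the adjusted threshold. Krt14, a keratin of the basal epidermis, was at 5.98 ± 4.00 CPM and 30.8 ± 36.9 CPM (adjusted p = 0.482). Of the 3 tumors high in keratinocyte genes, liraglutide tumors 5, 4 and 2 ranked 1, 2 and 5 of 10 in muscle, and liraglutide tumor 3, at the vehicle level in keratinocyte genes, ranked 3. The summed adipocyte level was highest in vehicle tumor 3, at 157 CPM, and lowest in vehicle tumor 1, at 55.4 CPM, and 3 of 6 tested genes were positive. The most abundant of these were Plin4, Fabp4, Lipe and Cidec.

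Red blood cell genes went the other way, with 0 of 5 positive and 4 at an unadjusted p under 0.05 in the lower direction, against 5.62% of all genes. Their summed level was 26.9 to 74.1 CPM with vehicle and 15.6 to 33.5 CPM with liraglutide. The most abundant, the beta globin gene Hbb-bs, was at 30.1 ± 12.8 CPM and 7.45 ± 4.41 CPM (adjusted p = 0.482). Nerve sheath genes were positive in 5 of 5 and leukocyte genes in 7 of 7 tested, with 0 at an unadjusted p under 0.05 in each list, and median log2 fold changes of 0.16 and 0.26. Their summed levels overlapped between groups, at 81.1 to 121 CPM and 104 to 141 CPM for nerve sheath genes, and at 195 to 362 CPM and 225 to 407 CPM for leukocyte genes. Lung epithelial genes, led by Krt8, Krt18, Cdh1 and Krt19, summed to 4625 to 9718 CPM with vehicle and 4730 to 7034 CPM with liraglutide. Of the 8, 5 were positive, and the median log2 fold change was 0.37. An unadjusted p under 0.05 in the higher direction, found for 3.97% of all genes, was reached by 1. That gene was Nkx2-1, the transcription factor of lung epithelium, at 25.2, 17.7, 26.6, 95.4 and 66.6 CPM with vehicle and 66.1, 52.2, 109, 99.9 and 132 CPM with liraglutide (log2 fold change 0.99, adjusted p = 0.520). Nkx2-1 and the surfactant gene Sftpc were highest in vehicle tumor 4 and liraglutide tumor 5 of their groups, and the other 6 lung genes were highest in other tumors. The part of these tissues in the muscle values was not tested.

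Among the slow fiber members, Myh7 had the widest range. Its counts were 7, 28, 23, 353 and 108 in vehicle tumors 1 to 5 and 50, 206, 219, 144 and 595 in liraglutide tumors 1 to 5, whereas Tnni1 never exceeded 14 counts and Myl2 never exceeded 3. Tnni1 was at 0.553, 0.507, 0.525, 0.753 and 0.733 CPM with vehicle and 0.777, 0.571, 0.758, 0.945 and 1.04 CPM with liraglutide. Vehicle tumor 4 and liraglutide tumor 5 were the highest of their groups for Myh7, Tnni1 and Mb, while the highest vehicle tumor for Tnnt1 was tumor 5. Myh6, the neighboring cardiac myosin, was near 0 throughout, and 24.65% of the exonic length of Myh7 is shared with the antisense transcript Mhrt, which had 3 counts in all.

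**Figure D5:**
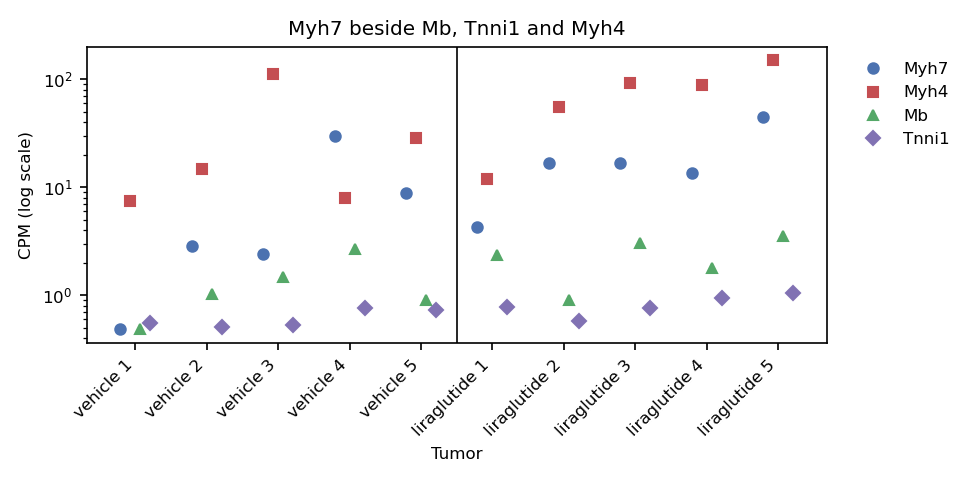
Level (CPM, log scale) of Myh7, Myh4, Mb and Tnni1 in each tumor; the vertical line separates vehicle from liraglutide tumors. Myh7 is highest in liraglutide tumor 5 (44.3 CPM) and vehicle tumor 4 (29.5 CPM), while Myh4 in vehicle tumor 4 is at 7.87 CPM.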

How the data were processed

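RNA of 10 tumors was depleted of ribosomal RNA, made into strand-marked libraries and sequenced as read pairs. The authors mapped the reads to GRCm39 (TopHat 2.0.13, Bowtie 1.0.1), counted them per gene with featureCounts, left out samples at quality assessment and deposited raw counts without normalization. The submitters' processing notes name GRCh38 and mm10 instead. The annotation release, strand setting and treatment of reads with several matches are not given in the sources used here. Groups and tumor numbers came from the sample titles, which do not say what the tumors shared, so p-values measure the spread between these tumors. Ensembl identifiers were matched without version to GENCODE M39 on GRCm39 (51731, or 93.38%, with 98.31% of the counts) for symbols, positions and canonical transcript lengths.

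The test was edgeR's quasi-likelihood fit (edgeR 4.0.16 in R 4.3.3) of treatment alone, after filterByExpr and TMM scaling, adjusted over all tested genes. CPM uses the same scaling, and CPM per kilobase divides it by canonical transcript length. Single genes were also compared by exact permutation of log2 CPM (prior count 2). Alternatives were DESeq2 1.42.0 (the study's tool, run with its filter on low means and then with that filter off), limma-voom (limma 3.58.1), other scalings and filters, tumor number as a block, and each tumor left out. The scripts were tested on simulated data. No 2 tumors of a group agreed within counting noise (chi-square per degree of freedom of at least 8.38).

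The members and lists were chosen with earlier results of these data known. Fold changes are given for the 20 tested of 24 members set by role, and for the 3 of smallest unadjusted p (Myom1, Actn2 and Neb). Other lists are given by counts and at most 4 abundant genes, except where the text says otherwise. A gene of these lists is not reported here.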

Additional observations from a re-analysis of the deposited data

Results flagged for a closer look

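For the summed muscle level, each member with more than 3 counts in a tumor and the 4 myosin shares, the highest and lowest tumor of each group of 5 was set against the rest by Dixon's rule (gap to the nearest tumor over the range, critical value 0.71). Of 96 groups examined, 12 stood out. Chance gives about 1 in 20 only for independent sets of normally distributed values. These genes share the same fragments, so the 12 were not weighed against that rate. In vehicle tumor 3, Myh4 was high at 113 CPM (next 28.8), Pvalb at 8.4 CPM (next 1.14) and Myom2 at 4.83 CPM (next 1.62), and the Myh2 share of the adult myosins was low at 2.7% (next 8.74%). In vehicle tumor 4, Myh7 was high at 29.5 CPM (next 8.8) and at 50.6% of the adult myosins (next 12.7%). In vehicle tumor 1, Mybpc1 was low at 1.59 CPM (next 5.47). In liraglutide tumor 1, the Myh1 share was high at 42.8% (next 20.5%), the Myh2 share high at 24.1% (next 7.2%) and the Myh4 share low at 24.5% (next 58%), while Ckm was low at 1.38 CPM (next 4.98). In liraglutide tumor 5, Actn2 was high at 9.9 CPM (next 5.1). The 5 flags on shares are not independent of each other, since the shares of a tumor sum to 100%.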

How the results depend on the processing

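Under DESeq2, limma-voom, other scalings and filters and the replicate block, no muscle gene with an adjusted p passed the threshold, and all 201 values of single genes kept their direction. The same held with each tumor left out, where 225 of 230 kept their direction. The exceptions were Mylpf, with log2 fold changes from -0.02246 to 0.4531, and Pvalb, from -0.1394 (without vehicle tumor 1) to 1.927 (without vehicle tumor 3). Without Ttn, an alternative chosen after seeing the data, the mean summed level in liraglutide tumors was 686.6 CPM, since its largest gene is removed. The count of tested members above 0 was 36 to 38 and their median log2 fold change 0.66 to 1.19 with a tumor left out, and 27 of 28 were above 0 with at least 10 counts in every tumor. DESeq2 called 25 genes in all against 0 in edgeR, but 35 of the 39 members had no adjusted p there and could not be called. Without its independent filtering, added after seeing the data, all 39 had one, 21 genes in all were called and 0 members, and the smallest adjusted p of a member was 0.0888.

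Same-numbered tumors did not deviate together in every pair (correlations of 0.354, 0.565, -0.0753, 0.0681 and 0.389), with a mean of 0.26 against -0.0682 for tumors of other numbers. The labels do not say what a number shares and not every pair was above 0.1, so the numbers were used as names only, and whether they mark a shared day or cage is not known. Of the vehicle tumors, 1 of 5 correlated best with its own number. With tumor number as a replicate block, 38 of 39 members were above 0, their median log2 fold change was 0.92, Pvalb was at 0.90, Myh4 at 1.63 and Myh7 at 1.86, 30 were higher and 1 lower at an unadjusted p under 0.05 (all 17464 genes, 1309 and 1276, against 694 and 981 without the block), and none passed the adjusted threshold.

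Low counts limit the lowest members: 7 of the 46 were not tested, and Myl3, Tnnc2, Myl2 and Mybph had 0, 1, 7 and 43 counts over the 10 tumors. Levels per kilobase rest on annotated transcript lengths and not on the isoforms present. With raw counts or merged exon lengths, the latter added after seeing the data, no mean myosin share moved beyond its SD, and Myh4 led in 6 tumors by raw counts in place of 8.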
